A study of Homo sapiens with 6 samples.

Results

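The mitochondrial ribosomal proteins are the nuclear-encoded proteins of the ribosome inside mitochondria. Their genes were taken as the protein-coding rows of the deposited table whose gene name starts with MRPL or MRPS followed by a number, which gave 78 genes of 58735 gene rows. There were 49 MRPL genes, named for the large subunit, and 29 MRPS genes, named for the small subunit. The other 77 rows with such names, among them 70 processed pseudogenes, carried another biotype and were left out. Expression had been measured by RNA sequencing in 3 shTRIM15 and 3 shcontrol libraries of Huh7, an established human liver cancer cell line. The shTRIM15 cells carried a short hairpin RNA against TRIM15, a gene of the tripartite motif family of ubiquitin ligases, and the shcontrol cells a control hairpin. The question was which transcripts differ once TRIM15 is reduced. The labels do not say how many hairpins were used or whether replicates came from separate cultures, so p-values measure the spread between these libraries, which may be technical.

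The mitochondrial ribosome translates the few messenger RNAs of the mitochondrial genome, all of which encode subunits of the respiratory chain and ATP synthase. Its ribosomal RNAs come from the mitochondrial genome, whereas every protein subunit is encoded in the nucleus, made in the cytosol and imported. Some of its proteins descend from bacterial ribosomal proteins, and many others have no bacterial counterpart and were added in the mitochondrial lineage. In the liver, mitochondrial translation supplies the oxidative phosphorylation on which hepatocytes rely.

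Libraries held 18664890, 19556855 and 17332508 reads in shTRIM15 cells and 18143502, 17715210 and 18217903 reads in shcontrol cells. TRIM15 had 3.225, 2.113 and 2.514 FPKM (a read count divided by gene length and by library size) in shTRIM15 libraries, against 5.169, 5.091 and 4.885 FPKM in shcontrol libraries. It fell by 0.75 on the log2(FPKM + 1) scale, which understates changes of low genes (SE 0.106, adjusted p = 0.00416, limma). Its mean FPKM was 51.8% of the control mean. Reads from the mitochondrial genome made up 3.75 to 3.85% of reads in shTRIM15 libraries and 4.04 to 4.09% in shcontrol libraries. All 10 hepatocyte lineage markers were above the detection filter, with summed levels of 1557 to 1589 FPKM in shTRIM15 libraries and 1562 to 1602 FPKM in shcontrol libraries. Of these 10, 2 were lower and 0 higher, while over all genes tested 10.1% were lower and 8.93% higher. The lower ones were FGB and TF (log2 fold changes -0.22 and -0.09, adjusted p = 0.00277 and 0.0248, limma). The TF call was lost without any 1 library other than shcontrol replicate 1 (adjusted p up to 0.0869). The groups did not overlap in 6 of the 10, against 37.8% of all genes tested and 44.04% of protein-coding genes. The 8 endothelial markers summed to at most 0.4335 FPKM in shTRIM15 and 0.4849 FPKM in shcontrol libraries, and CDH5 was listed at 0 throughout. Of 9 immune markers, 7 lay below 0.5 FPKM in all libraries, including PTPRC and CD3E, and the sum was 16.53 to 18.0 FPKM in shTRIM15 against 16.34 to 17.75 FPKM in shcontrol libraries, most of it CD14. The 8 fibroblast and stellate cell markers summed to 55.59 to 57.79 FPKM in shTRIM15 and 62.48 to 66.2 FPKM in shcontrol libraries. LUM made up most of that sum, while THY1 was listed at 0 and DCN, PDGFRB and ACTA2 were near 0. LUM and COL1A2 were lower in shTRIM15 cells (log2 fold change -0.18 each; adjusted p = 0.00931 and 0.0365, limma), COL1A2 no longer without any 1 library (up to 0.097), and their part in the results on the ribosome was not tested.

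Expression of the mitochondrial ribosome as a whole was close to level after TRIM15 knockdown, with small differences in both directions. Of the 77 members tested, 11 were higher in shTRIM15 cells, 9 were lower and 57 did not pass the threshold of adjusted p under 0.05 (limma on log2(FPKM + 1), two-sided, adjusted over 14847 genes). The only member below the detection filter of 0.5 FPKM in at least 3 libraries was MRPS24. Over all genes tested, 19.0% passed the threshold, 8.93% as higher and 10.1% as lower, and among the members the corresponding shares were 25.97%, 14.29% and 11.69%. Among protein-coding genes alone, 10.8% were higher and 12.02% lower, so the members' shares were near the background. Log2 fold changes of the members ran from -0.28 to 0.27, with a median of 0.026, against a median of 0.0014 over all genes tested. The groups did not overlap in 33 members (42.86%), 19 of them higher in shTRIM15. The share without overlap was 37.8% of all genes tested and 44.04% of protein-coding genes, so that of the members was near the background. Without any 1 of the 6 libraries, the count of higher members dropped to between 4 and 7 and the count of lower ones to between 5 and 7. Removing any of shTRIM15 replicates 1, 2 or 3 or shcontrol replicate 2 left 6, 4, 7 and 4 higher members, and removing shcontrol replicates 1 or 3 left 7 each. The count of lower members was 7 without shcontrol replicate 1 and 5 without each of the others.

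**Figure D1:**
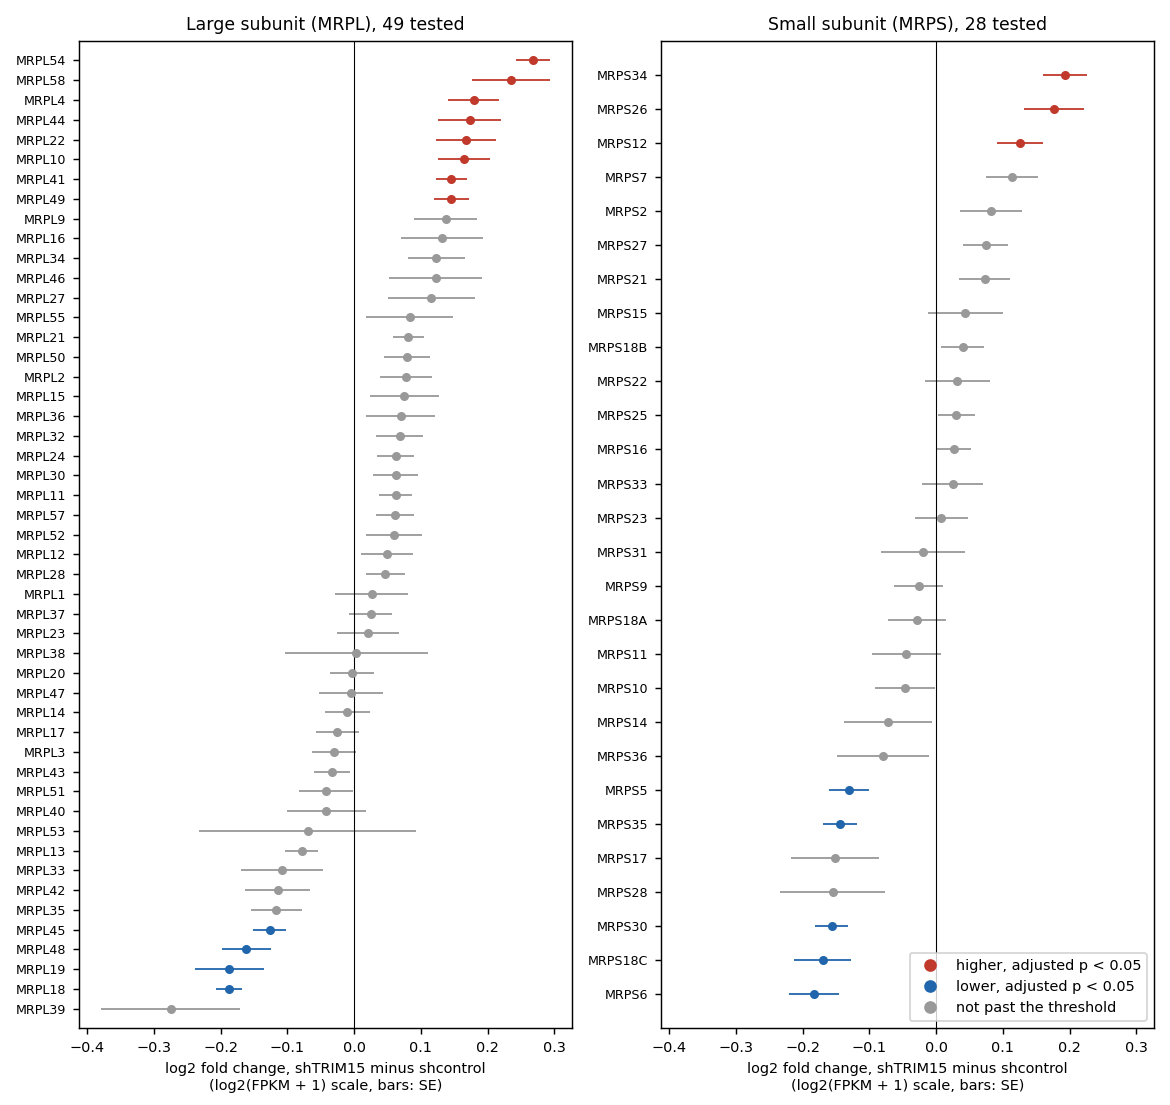
Log2 fold change (shTRIM15 minus shcontrol, on the log2(FPKM + 1) scale) of the 49 large-subunit and 28 small-subunit genes tested, each with its SE, coloured by whether the adjusted p was under 0.05. Values lie between -0.28 and 0.27, with 8 higher and 4 lower large-subunit genes and 3 higher and 5 lower small-subunit genes.

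The subunits were also read apart. Among the 49 MRPL genes, 8 were higher (16.33%, against 8.93% of all genes tested) and 4 lower (8.163%, against 10.1%), and the median log2 fold change was 0.06. Among the 28 tested MRPS genes, 3 were higher (10.71%) and 5 lower (17.86%), and the median was -0.0063. Over protein-coding genes alone, 10.8% were higher and 12.02% lower. MRPS30 and MRPS18A carry small-subunit names but sit in the large subunit, and MRPS36 is now known as a component of the 2-oxoglutarate dehydrogenase complex. With genes placed by structure, the medians were 0.05 over 51 large-subunit genes and 0.025 over 25 small-subunit genes, so the sign for the small subunit depended on the assignment. The large-subunit median was 0.037 without shcontrol replicate 2 and 0.035 after correction for GC and length, and the small-subunit median turned positive without shTRIM15 replicate 3 (0.0009), shcontrol replicate 1 (0.0088) or shcontrol replicate 2 (0.0123). The difference between the subunits was not tested.

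The summed level of the complex moved by a few percent. The MRPL genes summed to 1375, 1381 and 1363 FPKM in shTRIM15 libraries, against 1354, 1333 and 1331 FPKM in shcontrol libraries, or 102.5% of the control mean. The MRPS genes summed to 766.5, 755.9 and 749.6 FPKM in shTRIM15 libraries, against 735.9, 739.4 and 721.3 FPKM in shcontrol libraries, or 103.4%. In both subunits every shTRIM15 sum lay above every shcontrol sum. Most of the small-subunit difference was that of MRPS34, and the MRPS genes without it summed to 572.1, 575.9 and 568.5 FPKM in shTRIM15 against 571.6, 576.6 and 563.1 FPKM in shcontrol libraries. These ranges overlapped. The deposited values are not scaled to the plain read total, and scaled instead to the sum of reads per library, the sums were 104.1% of control for the large and 105.0% for the small subunit. The ratio of the large to the small sum was 1.794, 1.827 and 1.818 in shTRIM15 and 1.84, 1.803 and 1.845 in shcontrol libraries, and these ranges overlapped.

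Transcript levels per length differed widely within the complex. MRPS34, a mitochondrion-specific protein of the small subunit, was the highest at a mean of 173.5 FPKM over the 6 libraries. In the large subunit MRPL51, MRPL11 and MRPL41 were highest, with means of 100.8, 91.95 and 90.36 FPKM, and in the small subunit MRPS35 and MRPS26 followed MRPS34 with 85.04 and 65.3 FPKM. MRPL51 had 97.82, 103.4 and 96.57 FPKM in shTRIM15 against 107.9, 99.11 and 99.74 FPKM in shcontrol libraries. MRPL11, of the stalk base where translation factors bind, had 96.5, 94.0 and 91.37 FPKM in shTRIM15 against 90.83, 88.52 and 90.48 FPKM in shcontrol libraries. Neither passed the threshold (adjusted p = 0.54 and 0.137, limma). MRPL51 was above MRPL11 within every library, although its lowest library (96.57 FPKM) was level with the highest of MRPL11 (96.5 FPKM). MRPL11 and MRPL41 overlapped across libraries. The median member had 21.85 FPKM in the large and 17.69 FPKM in the small subunit among genes tested.

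At the low end, read counts limited what could be seen. MRPS24 was listed at 0.2029, 0.213 and 0.1526 FPKM in shTRIM15 and 0.254, 0.3469 and 0.2108 FPKM in shcontrol libraries, a mean of 11 reads. The annotated readthrough gene URGCP-MRPS24 covers the whole gene on the same strand and was listed at 0. MRPL38 averaged 0.9065 FPKM and 60.8 reads, and the annotated coding gene AC087289.3, listed at 0.0089 FPKM, covers almost all of it on the same strand. MRPL53 averaged 1.618 FPKM and 40.0 reads, and it overlaps CCDC142 on the same strand. MRPL46 averaged 1.545 FPKM, with 1.533, 1.778 and 1.647 FPKM in shTRIM15 against 1.316, 1.515 and 1.482 FPKM in shcontrol libraries. In the small subunit MRPS28 and MRPS17 averaged 3.166 and 3.939 FPKM, and MRPS17 lies inside NIPSNAP2 on the same strand. Coding genes on the same strand also cover almost all of MRPL46 (AC013489.1, listed at 0) and MRPS28 (AC036214.3, 0.0178 FPKM). MRPL12 and MRPL30, with means of 21.26 and 25.77 FPKM, are covered by such genes too. The part of these overlaps in the low values was not tested. The counting rule for reads of overlapping genes is not given in the sources consulted, and none of the 5 tested genes at this end passed the threshold.

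**Figure D2:**
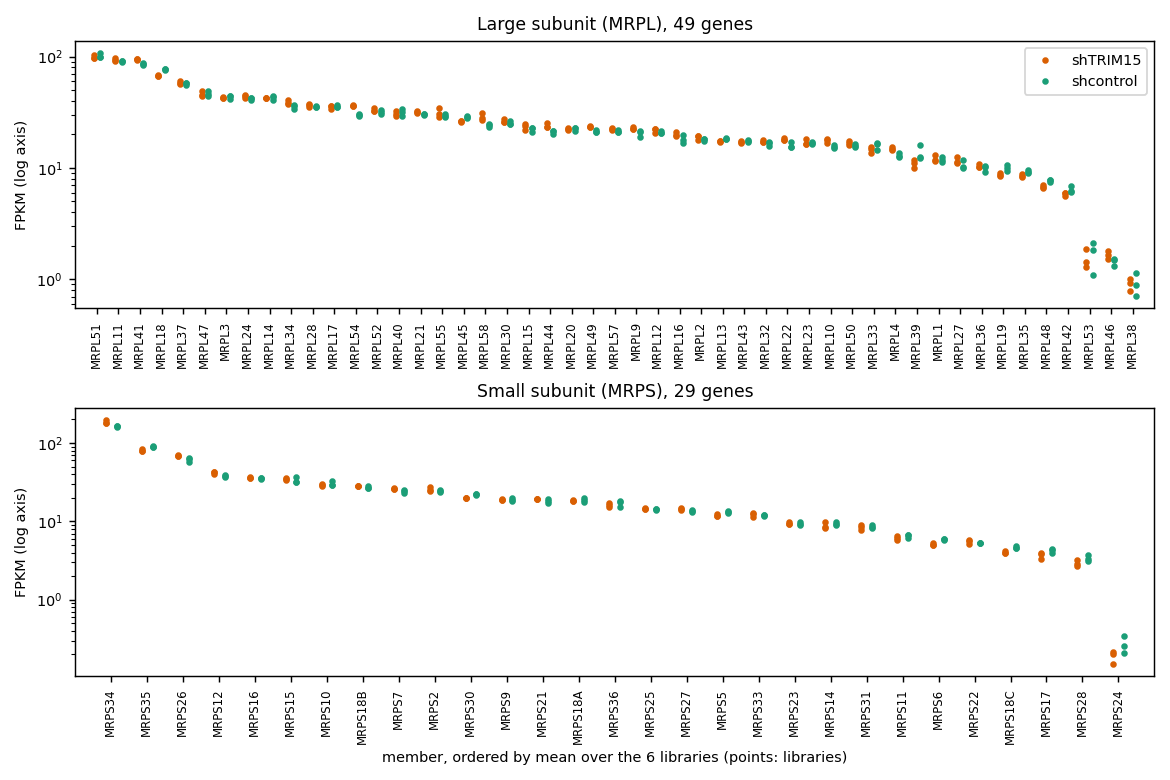
FPKM in each library (log axis) for the 49 MRPL and 29 MRPS genes, ordered by their mean over the 6 libraries. MRPS34 stands highest with a mean of 173.5 FPKM and MRPS24 lowest with 0.23 FPKM.

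The largest rise in the family was that of MRPL54, a mitochondrion-specific protein of the large subunit (chromosome 19, 3762664 to 3768575, GRCh38). It had 36.21, 35.72 and 36.69 FPKM in shTRIM15 libraries, against 30.66, 29.66 and 29.38 FPKM in shcontrol libraries. The groups were far apart compared with their spread, and the rise of 0.27 on the log2 scale (SE 0.025) passed at adjusted p = 0.001 (limma). MRPL58 encodes a peptidyl-tRNA hydrolase built into the large subunit that can release peptides from stalled ribosomes. Its levels were 26.84, 27.82 and 31.36 FPKM in shTRIM15 libraries, against 23.32, 25.06 and 24.16 FPKM in shcontrol libraries (log2 fold change 0.23, SE 0.058, adjusted p = 0.0332, limma). The third shTRIM15 library stood above the other two, but all 3 exceeded every control. The MRPL58 call was lost without shTRIM15 replicate 2 (adjusted p = 0.0648) and without shcontrol replicates 1, 2 or 3 (0.0888, 0.058 and 0.0839).

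MRPL4, a homologue of the bacterial protein that lines the exit tunnel, had 15.29, 14.66 and 14.54 FPKM in shTRIM15 libraries, against 12.65, 12.68 and 13.63 FPKM in shcontrol libraries. All shTRIM15 values were higher, with a log2 fold change of 0.18 (SE 0.038, adjusted p = 0.02, limma). MRPL44, which has a ribonuclease III fold, had 23.17, 25.45 and 23.21 FPKM in shTRIM15 and 21.61, 20.06 and 21.65 FPKM in shcontrol libraries (log2 fold change 0.17, adjusted p = 0.0442, limma). Removal of single libraries ended both calls: MRPL4 missed the threshold without shTRIM15 replicates 1 or 2 or shcontrol replicates 1 or 2 (adjusted p of 0.053 to 0.0677), and MRPL44 without any of the 6 (up to 0.116). The other large-subunit genes that were higher were MRPL22 and MRPL10 (log2 fold changes 0.17 and 0.16) and MRPL41 and MRPL49 (0.15 each). MRPL10 anchors MRPL12 in the stalk. MRPL41 had 93.13, 95.72 and 96.06 FPKM in shTRIM15 against 87.23, 86.38 and 83.64 FPKM in shcontrol libraries (adjusted p = 0.00723, limma). MRPL49 had 24.01, 23.3 and 23.4 FPKM in shTRIM15 against 21.1, 21.69 and 20.84 FPKM in shcontrol libraries (adjusted p = 0.0111, limma). It overlaps the ribosomal protein gene FAU at its start, on the opposite strand. MRPL22 missed the threshold without shTRIM15 replicates 1, 2 or 3 or shcontrol replicates 2 or 3 (adjusted p up to 0.122), and MRPL10 without shTRIM15 replicates 1 or 2 or shcontrol replicates 1 or 2 (up to 0.0933).

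Among large-subunit genes past the threshold, the largest fall was that of MRPL18, a homologue of the bacterial protein that binds 5S ribosomal RNA (chromosome 6, 159789812 to 159798436, GRCh38). It had 68.16, 66.36 and 67.12 FPKM in shTRIM15 libraries, against 75.8, 76.97 and 77.2 FPKM in shcontrol libraries. The groups were clearly apart, and the log2 fold change of -0.19 (SE 0.020) passed at adjusted p = 0.00141 (limma). MRPL45 encodes the protein that tethers the ribosome to the inner membrane at the exit tunnel, where nascent respiratory subunits emerge. Its levels were 25.99, 26.33 and 26.13 FPKM in shTRIM15 libraries, against 29.23, 28.08 and 28.63 FPKM in shcontrol libraries (log2 fold change -0.13, SE 0.024, adjusted p = 0.013, limma). Every shTRIM15 library was below every control. The pseudogene MRPL45P2 was listed at a mean of 1.57 FPKM, and the counting rule for reads that fit several near-identical copies is likewise not given.

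MRPL19, of bacterial origin, had 9.079, 8.404 and 8.668 FPKM in shTRIM15 and 9.414, 10.09 and 10.7 FPKM in shcontrol libraries (log2 fold change -0.19, adjusted p = 0.0456, limma). MRPL48, a mitochondrion-specific protein, had 6.624, 6.992 and 6.741 FPKM in shTRIM15 and 7.517, 7.751 and 7.85 FPKM in shcontrol libraries (log2 fold change -0.16, adjusted p = 0.0232, limma). Both calls were near the threshold. MRPL19 missed it without shTRIM15 replicates 1, 2 or 3 or shcontrol replicates 2 or 3 (adjusted p of 0.0651 to 0.128), and MRPL48 without shTRIM15 replicates 1 or 3 or shcontrol replicates 2 or 3 (0.0679 to 0.0773). MRPL39, related to threonyl-tRNA synthetases, had the largest negative log2 fold change of the family, -0.28 (SE 0.104), but did not pass (adjusted p = 0.115, limma). It had 11.01, 11.86 and 10.07 FPKM in shTRIM15 and 16.01, 12.43 and 12.27 FPKM in shcontrol libraries, and the first control library stood above the other two. Without shcontrol replicate 1 the log2 fold change was -0.16 (adjusted p = 0.166, limma). MRPL39 is singled out here because of its value.

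In the small subunit the largest rise was that of MRPS34 (chromosome 16, 1771890 to 1773155, GRCh38), which was also the most abundant member. It had 194.5, 180.1 and 181.1 FPKM in shTRIM15 libraries, against 164.3, 162.8 and 158.2 FPKM in shcontrol libraries. All shTRIM15 libraries exceeded all controls, with a log2 fold change of 0.19 (SE 0.033, adjusted p = 0.0087, limma). MRPS26, another mitochondrion-specific protein, had 68.58, 70.73 and 68.6 FPKM in shTRIM15 and 64.15, 62.89 and 56.85 FPKM in shcontrol libraries (log2 fold change 0.18, adjusted p = 0.0368, limma). MRPS12, the homologue of the bacterial protein at the decoding centre, had 39.83, 42.84 and 42.73 FPKM in shTRIM15 and 37.31, 38.32 and 39.06 FPKM in shcontrol libraries (log2 fold change 0.13, adjusted p = 0.0471, limma). The groups of MRPS12 were separated by less than 1 FPKM at their nearest libraries. MRPS26 missed the threshold without shTRIM15 replicates 1, 2 or 3 or shcontrol replicate 2 (adjusted p of 0.0631 to 0.107), and MRPS12 without any single library other than shTRIM15 replicate 1 (0.0677 to 0.139).

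Among MRPS genes that fell, MRPS35 and MRPS30 were the more abundant. MRPS35, a mitochondrion-specific protein of the small subunit, had 82.91, 80.32 and 78.96 FPKM in shTRIM15 libraries, against 87.94, 88.87 and 91.25 FPKM in shcontrol libraries (log2 fold change -0.14, SE 0.025, adjusted p = 0.00955, limma). MRPS30, which sits in the large subunit despite its name, had 19.79, 20.08 and 19.82 FPKM in shTRIM15 and 22.66, 22.42 and 21.82 FPKM in shcontrol libraries (log2 fold change -0.16, SE 0.025, adjusted p = 0.00716, limma). In both genes the groups were separated by more than the spread within either. MRPS6, of bacterial origin, had 5.019, 5.062 and 5.288 FPKM in shTRIM15 and 5.996, 5.838 and 6.023 FPKM in shcontrol libraries (log2 fold change -0.18, adjusted p = 0.0166, limma). It shares its strand and part of its span with SLC5A3. The homologue of bacterial protein S5, MRPS5, fell by 0.13 on the log2 scale (adjusted p = 0.0253, limma). MRPS6 missed the threshold without shTRIM15 replicates 1 or 2 or shcontrol replicate 3 (adjusted p of 0.0515 to 0.0589), and MRPS5 without shTRIM15 replicates 2 or 3 or shcontrol replicates 1 or 2 (0.0624 to 0.0856).

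The MRPS18 genes are a family of 3 paralogs related to the bacterial protein S18 that occupy different places in the ribosome. MRPS18C had 3.987, 4.139 and 3.934 FPKM in shTRIM15 libraries, against 4.832, 4.564 and 4.551 FPKM in shcontrol libraries. It fell by 0.17 on the log2 scale (adjusted p = 0.0338, limma), a call that was lost without any 1 of the 6 libraries (0.0622 to 0.103). MRPS18A had 18.46, 18.17 and 18.68 FPKM in shTRIM15 and 18.7, 20.03 and 17.81 FPKM in shcontrol libraries, with a log2 fold change of -0.029 (adjusted p = 0.702, limma). MRPS18B had 27.99, 28.31 and 27.97 FPKM in shTRIM15 and 26.55, 28.57 and 26.82 FPKM in shcontrol libraries, with a log2 fold change of 0.04 (adjusted p = 0.45, limma). In both the groups overlapped, and the difference between the paralogs was not tested. MRPL12, the flexible stalk protein, had 20.42, 22.15 and 22.39 FPKM in shTRIM15 and 21.31, 20.67 and 20.63 FPKM in shcontrol libraries. MRPS36 had 15.25, 17.1 and 16.35 FPKM in shTRIM15 and 15.47, 18.44 and 17.79 FPKM in shcontrol libraries, and in both genes the groups overlapped.

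**Figure D3:**
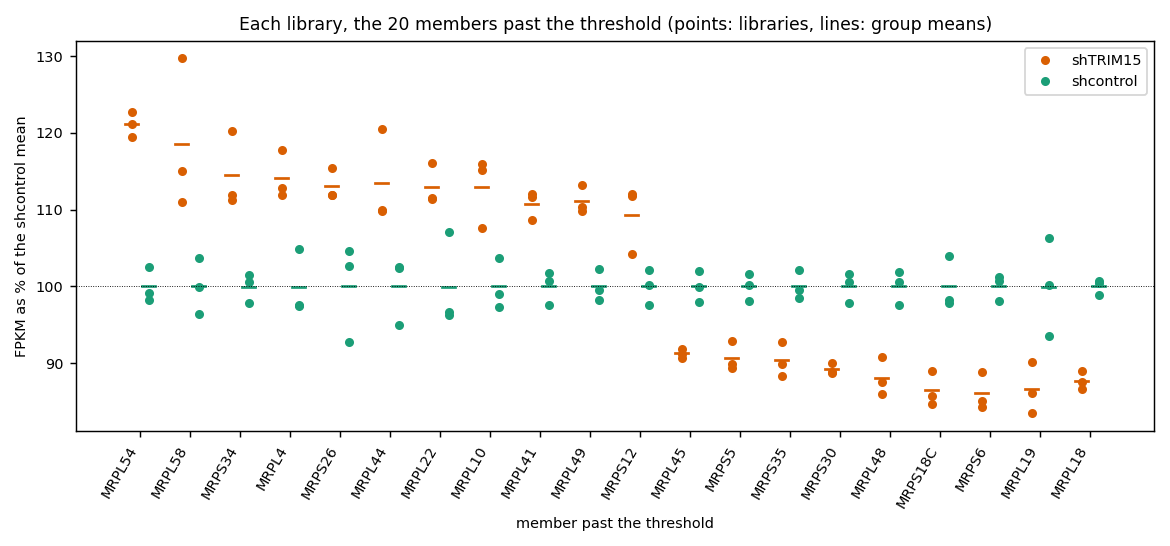
FPKM of each library as a percentage of the shcontrol mean for the 20 members past the threshold, with shTRIM15 left of shcontrol for each gene and lines at the group means. In all 20 the groups do not overlap, and MRPL54 at 121.1% of control has the highest shTRIM15 mean.

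Of the 20 members past the threshold, 8 kept their call whichever single library was left out. These were MRPL54, MRPL41, MRPL49 and MRPS34 among the higher and MRPL18, MRPL45, MRPS30 and MRPS35 among the lower. All 20 kept their sign in each of the 14 other settings tried. In the uniform nomenclature of ribosomal proteins, 45 tested members carry a name shared with a bacterial protein, and 4 of these were higher and 5 lower (median log2 fold change 0.044). The other 32 are called mitochondrion-specific here and include MRPS18A and MRPS18B despite their relation to S18. They had 7 higher (21.88%) and 4 lower (12.5%) and a median of 0.025. In the bacterial group the shares were 8.889% higher and 11.11% lower. Over all genes tested they were 8.93% and 10.1%, and over protein-coding genes 10.8% and 12.02%. The difference between the 2 groups was not tested. This grouping was made after the values were seen.

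The direction of a member's change went with the base composition of its coding sequence. Across 77 members, Pearson's r between coding GC content and log2 fold change was 0.51 and Spearman's rho 0.52. Across 11563 other coding genes tested they were 0.32 and 0.34, all in the same 6 libraries, and genes are not independent replicates. Members that were higher had a median coding GC of 60.1% (46.6 to 68.1%), those that were lower 47.2% (42.7 to 54.1%), and those that did not pass 51.7%. In the lowest of 4 equal GC classes, set on the other genes and reaching up to 44.95%, 0 of 18 members were higher and 3 lower, and 2.352% of other genes were higher and 21.96% lower. In the highest class, from 59.55%, 6 of 16 members were higher and 0 lower, and 18.42% of other genes were higher and 3.982% lower. The large subunit had a median coding GC of 54.2% and the small subunit 51.0%. Among members the change also went with expression level. Pearson's r between mean FPKM and log2 fold change was 0.318 and Spearman's rho 0.321, against 0.0073 and 0.0313 across the other genes. Median levels were 26.43 FPKM for higher, 12.59 FPKM for lower and 18.79 FPKM for the remaining tested members. The parts of GC content and level were not told apart.

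A fit that took the trend with coding GC and coding length out of each library left most member calls in place. Of the 20 members, 16 still passed, while MRPL4 (adjusted p = 0.0617), MRPL48 (0.103), MRPS12 (0.166) and MRPS18C (0.2) did not (limma). MRPL21, MRPL30, MRPL50 and MRPS27 passed in addition, which gave 13 higher and 7 lower members. With that correction the large-subunit median was 0.035 and the small-subunit median 0.02.

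**Figure D4:**
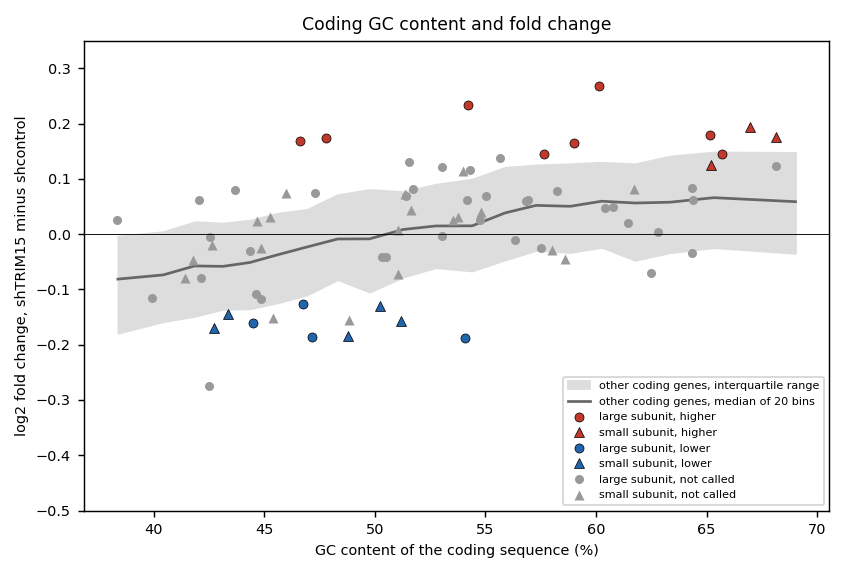
Log2 fold change (shTRIM15 minus shcontrol) against coding GC content for the 77 members tested, large subunit as circles and small subunit as triangles, over the median and interquartile range of other coding genes in 20 bins of GC content. Higher members lie mainly at high GC (median 60.1%) and lower ones at low GC (median 47.2%), along the slope of the other genes.

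Members were also sorted by the sequence of their 3' untranslated region. Among 15597 words of 7 bases scanned in 11281 genes outside the family, with region length and GC content as terms, ATGAATA and TGAATAA were those with the most negative coefficients on log2 fold change (-0.11 and -0.097). At least 1 of these words, which overlap each other, was present in 16 of 76 members with a region of at least 50 bases (21.05%), against 26.01% of the other genes. The 3 members that fell and hold a word are shown with the word in capitals and 9 bases on either side, 5' to 3', from GENCODE 29 transcripts on GRCh38. MRPL22, which holds a word and rose, is shown for contrast.
MRPL19 (chr2:75657300-75657324, plus strand): ctcctccacATGAATAttttggttt
MRPS18C (chr4:83461382-83461406, plus strand): tatctatgtTGAATAAaagtggttc
MRPS35 (chr12:27755784-27755808, plus strand): agttgctttTGAATAAtggttttgg
MRPL22 (chr5:154967019-154967043, plus strand): tagttgtaaATGAATAtttataagg

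Among the 16 members with a word, the median log2 fold change was -0.015, with 1 higher and 3 lower. The 60 members without one had a median of 0.048, with 10 higher and 6 lower. As shares, 6.25% were higher and 18.75% lower with a word, and 16.67% and 10.0% without. The words were chosen on the other genes for their low values, so the gap there is a description. Among 2934 other genes with a word the median was -0.08, with 3.579% higher and 28.05% lower. Among 8347 without, it was 0.026, with 13.35% higher and 6.541% lower. The members with a word had longer regions (median 1672.5 bases) than those without (316.5 bases), and the part of length in the members' difference was not tested. MRPL42 holds the words in a region of 14992 bases and had a log2 fold change of -0.11 (adjusted p = 0.156, limma). The other members that fell, MRPL18, MRPL45, MRPL48, MRPS5, MRPS6 and MRPS30, hold neither word in the region annotated for the transcript used.

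**Figure D5:**
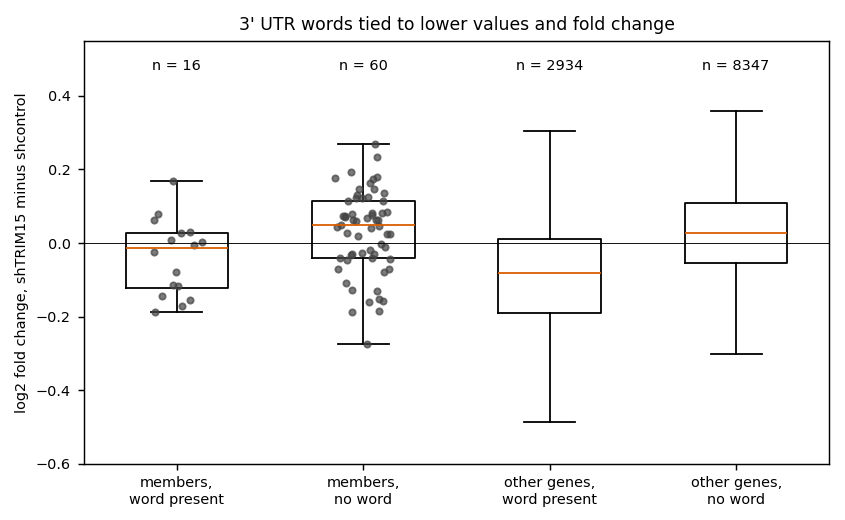
Log2 fold change (shTRIM15 minus shcontrol) of members and of other genes, split by presence of either 3' untranslated region word. Boxes show the quartiles and median, whiskers reach to at most 1.5 times the interquartile range, and points are members. The 16 members with a word have a median of -0.015 and the 60 without 0.048, against -0.08 and 0.026 for the other genes.

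Promoters of the family held the GABPA motif in a larger share than other promoters did. RefSeq promoters on GRCh38.p14, from 250 bases before to 50 after the start, were matched for 69 of 78 members and 9254 other tested coding genes. The core of the binding site of GABPA, an ETS factor known to act on nuclear genes for mitochondria, was searched as CCGGAAG on both strands and was present in 29 members (42.03%), against 19.99% of the other genes. It was found in 5 of 10 higher, 2 of 9 lower and 22 of 49 other tested members. The word ATGGCGGC, the core of the YY1 site, was present in 19 members (27.54%) against 6.44% of the others. In 17 of the 19 it lay on the sense strand after the start, and this word begins with a start codon. The NRF1 site, GCGCA and GCGC with any base between them, was present in 8 members (11.59%) against 12.32% of the others, and the SP1 core GGGCGG in 59.42% against 71.46%. Among the higher members, MRPL4, MRPL22, MRPL41, MRPL44 and MRPL49 hold no GABPA match. The lower members MRPL48 and MRPS18C hold 1 each. A link between the GABPA motif and the direction of change was not tested, and the examples chosen here do not show one. The 250 bases before the start are given for MRPL54, MRPL58 and MRPS34, which rose and hold matches. They are also given for MRPL18, the lower member with the smallest adjusted p. Sequences run 5' to 3' on the gene's strand, with GABPA matches in capitals.
MRPL54 (chr19:3762432-3762681, plus strand): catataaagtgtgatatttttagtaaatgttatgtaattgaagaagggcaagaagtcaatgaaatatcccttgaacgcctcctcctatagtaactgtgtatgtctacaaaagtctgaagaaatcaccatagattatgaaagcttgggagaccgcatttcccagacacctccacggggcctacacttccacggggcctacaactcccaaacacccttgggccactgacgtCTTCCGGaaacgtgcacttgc
MRPL58 (chr17:75012420-75012669, plus strand): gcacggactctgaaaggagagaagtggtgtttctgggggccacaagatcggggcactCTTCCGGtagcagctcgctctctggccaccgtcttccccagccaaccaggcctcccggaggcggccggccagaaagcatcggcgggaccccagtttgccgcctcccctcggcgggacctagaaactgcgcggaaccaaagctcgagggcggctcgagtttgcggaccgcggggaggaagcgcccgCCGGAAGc
MRPS34 (chr16:1773135-1773384, minus strand): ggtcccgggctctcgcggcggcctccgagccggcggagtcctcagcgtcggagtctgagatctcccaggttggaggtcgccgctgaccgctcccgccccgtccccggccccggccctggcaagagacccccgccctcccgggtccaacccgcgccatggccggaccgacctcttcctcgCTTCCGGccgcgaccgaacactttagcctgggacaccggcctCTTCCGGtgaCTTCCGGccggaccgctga
MRPL18 (chr6:159789562-159789811, plus strand): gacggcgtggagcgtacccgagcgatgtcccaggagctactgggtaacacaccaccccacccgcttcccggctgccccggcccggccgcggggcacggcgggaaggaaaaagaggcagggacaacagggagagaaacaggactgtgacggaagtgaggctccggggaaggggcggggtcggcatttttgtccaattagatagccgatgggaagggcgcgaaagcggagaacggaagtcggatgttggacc

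MRPS34 holds 3 matches, which begin 71, 29 and 19 bases before the start. MRPL58 holds 2, at 193 and 8 bases, and MRPL54 1, at 21 bases. MRPL18 has none in this window, which says nothing of whether the factor binds there.

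Many members have a neighbour whose annotated start lies close by. The start was taken as the outermost annotated end of each gene, which need not be the promoter in use. By this rule a coding gene on the opposite strand starts within 1000 bases of 29 of 78 members (37.18%), against 17.75% of 11575 other tested coding genes. For MRPL11, paired with PELI3, the annotated end is 66466738 but the RefSeq promoter lies at 66438799 to 66439098. For MRPS22, paired with PRR23A, they are 139005806 and 139343744 to 139344043. Both pairs were kept in the counts of members, and MRPL11 with PELI3 also in those of tested pairs. Of 24 such pairs with both genes tested, each counted 1 time, 13 had log2 fold changes of the same sign and 1 had both genes past the threshold. That pair was MRPL18 and TCP1, a subunit of the cytosolic chaperonin, whose starts are 63 bases apart. TCP1 averaged 94.12 ± 1.001 FPKM in shTRIM15 and 101.6 ± 1.31 FPKM in shcontrol libraries (SD, n = 3 each), a fall of 0.11 on the log2 scale (adjusted p = 0.00944, limma). TCP1 did not pass after correction for GC and length (adjusted p = 0.158) or with no variance trend (0.0644). Beside MRPL51, whose groups overlapped, the condensin subunit NCAPD2 averaged 40.95 ± 0.338 FPKM in shTRIM15 and 54.78 ± 0.386 FPKM in shcontrol libraries (log2 fold change -0.41, adjusted p = 0.000128, limma). MRPL46 and MRPS11, both members, start 34 bases apart, and neither passed the threshold.

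Other parts of the mitochondrial translation system were read from lists of their genes. The shares over all genes tested are given beside them, and over protein-coding genes alone 10.8% were higher and 12.02% lower. Of 5 mitochondrial ribosomal proteins with other symbols, 1 was higher (against 8.93% of all genes tested) and 0 lower (against 10.1%). The higher one was AURKAIP1, and the other 4, among them DAP3, did not pass. Whether 1 call in 5 departs from the background shares was not tested. AURKAIP1 missed the threshold without shTRIM15 replicates 2 or 3 or shcontrol replicate 2 (adjusted p of 0.0638 to 0.0668, limma). Of 26 assembly factors, 6 were higher (23.08%, against 8.93% of all genes tested) and 2 lower (7.692%, against 10.1%), and the median log2 fold change was 0.093. The higher count was 3 without shTRIM15 replicates 1 or 2 or shcontrol replicate 3 and 4 without shTRIM15 replicate 3 or shcontrol replicate 2, 3 with no variance trend, and 9 by voom on whole reads or with values rescaled to the sum of reads. The lower count was 3 without shTRIM15 replicate 1 and 1 without any 1 of the other 5 libraries. MALSU1, which keeps the subunits apart during assembly of the large one, had 10.88, 11.56 and 11.04 FPKM in shTRIM15 against 15.03, 13.65 and 13.43 FPKM in shcontrol libraries (log2 fold change -0.31, adjusted p = 0.00619, limma). The helicase DDX28 and the GTPase GTPBP6, both of large-subunit assembly, were higher (log2 fold changes 0.29 and 0.29). DDX28 missed the threshold when shTRIM15 replicates 1, 2 or 3 or shcontrol replicates 1 or 3 were left out (adjusted p of 0.0611 to 0.091). Of 18 translation factors, 2 were higher (11.11%, against 8.93% of all genes tested) and 1 lower (5.556%, against 10.1%). These were the peptide deformylase PDF (log2 fold change 0.35), the initiation factor MTIF2 (0.17) and the elongation factor GUF1 (-0.18). MTIF2 missed the threshold without shTRIM15 replicate 1 (adjusted p = 0.0511) or replicate 3 (0.0575).

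The RNA of the ribosome itself was lower. The small-subunit ribosomal RNA MT-RNR1 had 431.7, 429.4 and 420.5 FPKM in shTRIM15 libraries, against 509.6, 516.3 and 503.4 FPKM in shcontrol libraries (log2 fold change -0.25, SE 0.018, adjusted p = 0.000337, limma). The large-subunit ribosomal RNA MT-RNR2 had 1538, 1573 and 1569 FPKM in shTRIM15 and 1640, 1703 and 1709 FPKM in shcontrol libraries (log2 fold change -0.11, adjusted p = 0.0123, limma). Every shTRIM15 library lay below every control in both. MT-RNR2 missed the threshold without shcontrol replicate 2 (adjusted p = 0.0529), and only 1 of the 2 RNAs passed with no filter, no variance trend or quantile scaling. The labels describe enrichment for mRNA, so levels of ribosomal RNA depend on how much passed that step. Of the 13 mRNAs translated by this ribosome, 11 were lower (84.62%, against 10.1% of all genes tested) and 0 higher (against 8.93%). Their median log2 fold change was -0.13. Lower counts were 7 without shTRIM15 replicate 2 or shcontrol replicate 2, 5 with no variance trend, 6 after correction for GC and length, and 1 with no filter on low genes or with quantile scaling, which gives all libraries 1 distribution of values. MT-ND1, the lowest of them by log2 fold change, had 916.4, 928.1 and 924.8 FPKM in shTRIM15 against 1100, 1097 and 1066 FPKM in shcontrol libraries (-0.24, adjusted p = 0.000401, limma). Fewer mitochondria and less RNA per mitochondrion cannot be told apart in these bulk samples.

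Of 21 genes for transcription of the mitochondrial genome and processing of its RNA, 3 were higher (14.29%) and 1 lower (4.762%). Over all genes tested, 8.93% were higher and 10.1% lower, and over protein-coding genes 10.8% and 12.02%. The higher count was 1 without shTRIM15 replicates 2 or 3 or shcontrol replicate 3. TFAM, which packages the mitochondrial genome and starts its transcription, had 14.21, 13.09 and 12.93 FPKM in shTRIM15 libraries, against 17.96, 19.26 and 19.86 FPKM in shcontrol libraries (log2 fold change -0.47, SE 0.049, adjusted p = 0.00135, limma). The mitochondrial RNA polymerase POLRMT was higher (0.17, adjusted p = 0.00768), as was the helicase TWNK (0.22, adjusted p = 0.037, limma), whose call was lost without shTRIM15 replicates 1, 2 or 3 or shcontrol replicate 3 (adjusted p of 0.0544 to 0.107). The 8 tested transcription regulators of nuclear genes for mitochondria had a median of 0.11. Of these, 3 were higher (37.5%, against 8.93% of all genes tested) and 0 lower (against 10.1%). By log2 fold change they were MYC (0.27), the nuclear receptor ESRRA (0.21) and the coactivator PPRC1 (0.16), and PPRC1 missed the threshold without shTRIM15 replicates 2 or 3 or shcontrol replicate 2 (adjusted p of 0.0501 to 0.0577, limma).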

How the data were processed

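The authors deposited 1 table of FPKM values, with a column per library and a gene length column. The submitters' processing notes list genome build mm10, but all 58735 row identifiers and coordinates equal those of human GENCODE 29 on GRCh38. The aligner and the counting step are not given in the sources used here. Whole reads per gene were recovered from the spacing of FPKM times length in each library, and 100% of values came out whole within a tolerance of 0.01. The library size this spacing implies exceeded the sum of reads by 1.04 to 1.27% in shTRIM15 and fell short of it by less than 1% in shcontrol libraries.

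The fit took genes that reached 0.5 FPKM in at least 3 of 6 libraries, on log2(FPKM + 1), which understates changes of low genes, with limma 3.58.1 in R 4.3.3 (variance trend, two-sided, Benjamini-Hochberg over 14847 genes). The procedure was also run on simulated counts in which few genes changed and no trend with GC content was present. That setting differs from these data, so the run does not speak to the member calls. Pearson's r between libraries was 0.991 to 0.992 within and 0.988 to 0.989 between groups. Members named with all values were the 4 largest changes per subunit and direction among those past the threshold without group overlap, the 3 highest and 3 lowest by level, and members with a second role. From each list up to 3 genes were named, and other members and genes named (MRPL39, neighbours and the remaining calls among them) were chosen after their values were seen. Members and lists were chosen with earlier results of these data known.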

Additional observations from a re-analysis of the deposited data

How the results depend on the processing

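Of the 20 member calls, 7 held in all of 14 other settings: MRPL54, MRPL41, MRPL49 and MRPS34 as higher and MRPL18, MRPS30 and MRPS35 as lower. Signs were kept as well, which most of these settings could not change. A pseudocount of 0.1 kept all 20 calls, quantile scaling 16 and limma's voom on whole reads 19. With no filter, and with no variance trend, 5 members in place of 11 were higher. Leaving out single libraries gave 1770 to 2339 of 2824 genes past the threshold, 4 to 7 higher and 5 to 7 lower members, and large-subunit medians of 0.0367 to 0.0645. The large-subunit median of 0.0599 was 0.0806 when FPKM was rescaled to the sum of reads and 0.0351 after correction for GC and length, both chosen after seeing the data. The small-subunit median of -0.0063 was 0.0199 after that correction and 0.0245 with genes placed by structure. The cause of these shifts was not tested.

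Same-numbered libraries deviated together by r of 0.0086 to 0.0133, so the numbers were not taken to pair samples, although every library correlated best with its own number. With the replicate number as a block, 1913 genes passed, with 8 higher and 3 lower members. The planned quasi-likelihood count test was not run, and voom on whole reads is the only count-based fit given. Members with few reads, such as MRPL53 and MRPL38, had SEs above 0.1, so changes of the size seen elsewhere in the family were not detectable there.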
